A study of Rattus norvegicus with 241 samples.

Results

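CD45+ leukocytes sorted from the normal mammary glands of tumor-bearing SD rats were compared between 3 rats given TGFBRi (animals D2N, D3R and D4R) and 3 given vehicle (C2N, C2R and C5R). The 6 samples were chosen by their labels alone (CD45 sort, normal gland, NMU experiment, tumor-bearing, drug or control) out of 241 samples in the series, 202 of them bulk RNA-seq. SD is an outbred strain, and all 6 rats, controls included, were virgin females that received 50 mg/kg of N-nitroso-N-methylurea (NMU), an alkylating carcinogen that induces mammary tumors in rats. TGFBRi, named LY22157299 in the labels and LY2157299 (galunisertib) in the methods, inhibits the kinase of the type I TGFβ receptor. It was given by gavage at 75 mg/kg in 2 doses per day for 10 days, and NMU followed once dosing had ended. The sources used here differ on the age at first dose, which is 21 days in the dosing protocol and 4 weeks elsewhere. Glands were collected 87 days after NMU, so no rat had received drug during that time. Each library came from 1 rat. Tumor status was the same in both groups, but it arose after treatment: TGFBRi-treated rats without tumors form a group of their own (D1N, D1R and D2R).

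TGFβ signals through a pair of receptor kinases to SMAD transcription factors. In mammary tissue it restrains epithelial growth and many lymphocyte responses, and it favours matrix and contractile gene expression in fibroblasts and basal cells. CD45, encoded by PTPRC, marks nucleated cells of blood origin. The resting gland holds macrophages along its ducts, together with dendritic cells, T cells and B cells. Its epithelium has an inner luminal layer and an outer basal (myoepithelial) layer, which combines keratins such as KRT5 and KRT14 with smooth muscle proteins that squeeze milk from the gland. A sort for CD45 should leave epithelium and fibroblasts out, so that their genes serve as a check of the sort.

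The libraries held 9908645 (C2N) to 17146189 (D2N) reads assigned to genes. PTPRC was read in all 6, at 3605, 1351 and 2194 normalized counts in vehicle rats C2N, C2R and C5R and at 665, 1750.0 and 3265 in TGFBRi rats D2N, D3R and D4R, and the groups overlapped. Genes of fibroblasts, among them GSN and the collagens, were high in every library of both groups, and the cells they came from were not tested. In bulk libraries, fewer cells of a type cannot be told apart from less RNA per cell.

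One library stood apart from its label. Over 12085 genes listed in all 41 libraries examined (820 pairs), the library labelled CD45 of D2N was closest to the library labelled basal of D1R, a tumor-free TGFBRi rat: Pearson r was 0.990 on log2(CPM + 1), where CPM are reads scaled to a library total of 1000000, and the chi-square of their reads per gene, lower for more alike libraries, was 10.6. Both values ranked 1 among the 820 pairs, and the other 819 pairs reached an r of at most 0.983 and a chi-square per gene of at least 36.2. With the 8 other gland CD45 libraries the D2N library had an r of 0.873 to 0.919, against 0.903 to 0.969 in the 28 pairs among those 8. In the D2N library KRT14 reached 7059 CPM and PTPRC 48.4. In the other gland CD45 libraries KRT14 lay between 163 and 838 and PTPRC between 88.9 and 255 CPM. The library labelled basal of D1R had 6716 for KRT14 and 47.8 for PTPRC, while the 8 other basal libraries had no more than 1.35 for PTPRC. Which of the 2 labels is at fault, or whether the cells were shared, was not tested. Calls and list medians are therefore given with all libraries and without the library labelled D2N, where 2 TGFBRi rats stand against 3 vehicle rats.

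**Figure D1:**
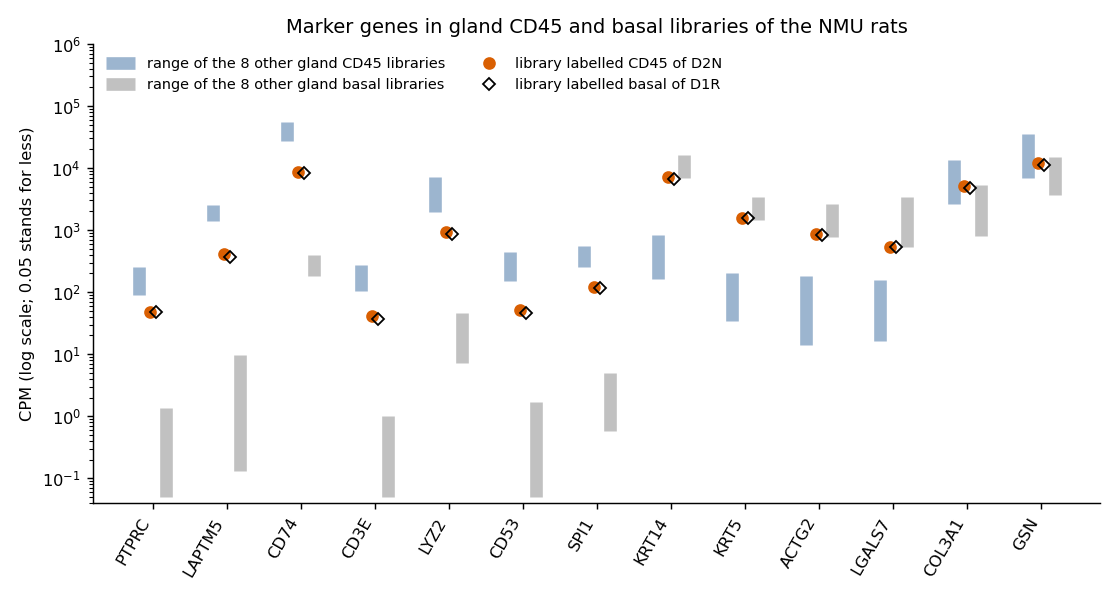
CPM (log scale) of leukocyte, basal and fibroblast marker genes in gland libraries of the NMU rats. Filled points are the library labelled CD45 of D2N and open diamonds the library labelled basal of D1R, with bars for the range of the 8 other CD45 and the 8 other basal libraries. The pair of libraries lies close together in all 13 genes, at KRT14 levels near the low end of the basal range (7059 and 6716, against 6855 to 16453) and at PTPRC levels between the ranges (48.4 and 47.8).

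Genes of the basal epithelium and smooth muscle stood higher in the libraries labelled CD45 of TGFBRi rats than in those of vehicle rats. Among them were ACTG2 (15.9-fold with the doubted D2N library and 9.35-fold without it), LGALS7 and KRT15. Fibroblast and matrix genes such as ITGA11, MFAP5 and LOXL1 stood lower in all 3 TGFBRi rats, as did the protease HTRA3 and the complement gene C4B. Macrophage genes such as CSF1R and F13A1 were higher in D3R and D4R, and CSF1R was below the vehicle rats in the library labelled D2N. Few of these differences passed the test across all genes. With all libraries, limma with Benjamini-Hochberg adjustment called 2 of 13297 genes (0.0150%), ACTG2 and LGALS7, both higher in TGFBRi rats, and none lower; 1011 genes had an unadjusted p under 0.05. edgeR called 0 genes, with 959 at an unadjusted p under 0.05. DESeq2 called 193 genes, 88 of them lower (0.662% of the 13297) and the others higher (0.790%). It gave no adjusted p for 1377 genes, which count as not called in these shares. In 845 genes (6.35%) every TGFBRi library lay above every vehicle library, and in 619 (4.66%) every one lay below. Without the D2N library limma called 3 of 13103 genes (0.0229%), all higher: ACTG2, LGALS7 and KRT15. edgeR then called 5 genes, adding F13A1 and CNN1. DESeq2 called 112 higher (0.855%) and 117 lower (0.893%). The groups did not overlap in 1692 genes on the high side (12.9%) and 1223 on the low side (9.33%).

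Most of the genes that DESeq2 called higher with all libraries were not called without the D2N library. DESeq2 gave some of them, UPK1B and OXTR included, no adjusted p without it, so a lost call is not in itself a smaller difference. Of the genes called higher, 31 were called both with and without it, which is 29.5% of the former and 27.7% of the latter. Of the genes called lower, 63 were called both ways, 71.6% and 53.8%. Among the genes called higher with all libraries, 95 (90.5%) were higher in each basal sort of the 6 rats than in any vehicle CD45 library, against 11.3% of the 13183 genes listed in both tables. Without the D2N library this held for 29 of 112 (25.9%). The vehicle libraries that entered the calls also set this threshold, so a raised share was partly built in. For 44 of those 112 genes the D2N library lay below all 3 vehicle rats, for 28 within their range and for 40 above. Of the genes called lower, D2N lay below all vehicle rats in all 88 called with it and in 95 of the 117 called without it. The 88 calls used D2N itself, so its place in them is no separate evidence. Where D2N lay over all genes was not counted, for either direction.

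**Figure D2:**
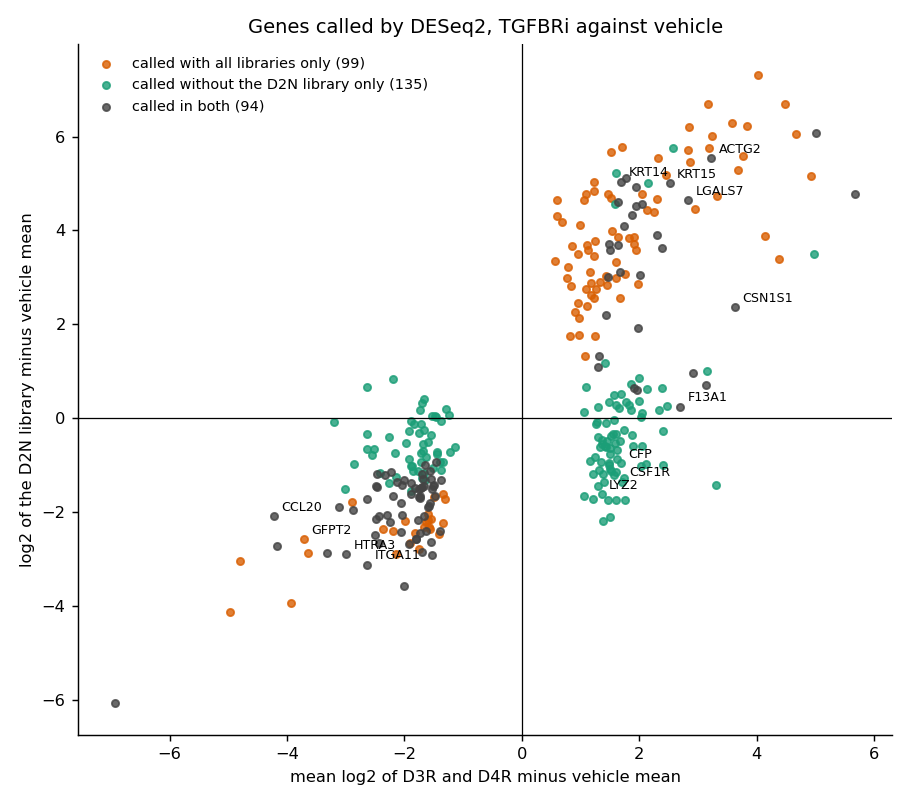
Genes called by DESeq2 with all libraries, without the D2N library or in both, by the log2 difference from the vehicle mean of D3R and D4R (horizontal axis) and of the library labelled D2N (vertical axis). Each point is 1 of 328 genes. Basal genes such as ACTG2 and KRT14 lie high on both axes, myeloid genes such as CSF1R and LYZ2 lie above 0 in D3R and D4R and below 0 in D2N, and the lowered genes lie mostly in the lower left.

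Basal and smooth muscle genes were higher in the TGFBRi rats. ACTG2, a smooth muscle actin of a family whose alike coding sequences can share reads, stood at 230.1, 210.5 and 359 normalized counts in C2N, C2R and C5R and at 12068, 2317 and 2552 in D2N, D3R and D4R. The groups did not overlap, and even the lowest TGFBRi rat was well above the highest vehicle rat. ACTG2 rose 15.9-fold, a log2 fold change of 4.00 ± 0.54 (SE; limma adjusted p = 0.0436), and 9.35-fold without the D2N library (3.22 ± 0.37; limma adjusted p = 0.0109). LGALS7, a galectin of stratified and basal epithelium, stood at 326, 328 and 229 in the vehicle rats and at 7254, 2364 and 1818 in the TGFBRi rats. It rose by a log2 fold change of 3.43 ± 0.47 (limma adjusted p = 0.0436), and by 2.83 ± 0.37 without D2N (limma adjusted p = 0.0200). KRT15, a keratin of basal epithelial cells, read 1355, 1093 and 801 in the vehicle rats and 33934, 5064 and 7277 in the TGFBRi rats. Its log2 fold change was 3.35 ± 0.56 with all libraries (limma adjusted p = 0.152) and 2.52 ± 0.34 without D2N, where it passed the test (limma adjusted p = 0.0218). In all 3 genes D2N was far above D3R and D4R, which were close to each other. The 2 limma calls rested on every vehicle rat and on D3R: the adjusted p of ACTG2 was 0.239 without C2N, 0.393 without C2R, 0.0894 without C5R and 0.117 without D3R, and that of LGALS7 was 0.239, 0.393, 0.117 and 0.117. Of the 12 basal epithelium genes tested, all 12 had a log2 fold change above 0, 7 did not overlap between groups (beside 6.35% of all genes on the high side) and 4 were called higher by DESeq2 (beside 0.790%; KRT14, KRT15, KRT17 and COL17A1). Their median log2 fold change was 2.87, and 1.73 without D2N, beside 0.09 and 0.06 over all genes tested. Without D2N 11 of 12 were above 0, 7 did not overlap (beside 12.9% of all genes) and DESeq2 called 4 (beside 0.855%; KRT5, KRT14, KRT15 and COL17A1).

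KRT14, the main keratin of the myoepithelial layer, stood at 3935, 2479 and 2649.8 normalized counts in the vehicle rats and 96977, 12855 and 7119 in the TGFBRi rats. The groups did not overlap, and of the TGFBRi rats D4R was the closest to the vehicle rats. Its log2 fold change was 2.81 ± 0.71, and 1.69 ± 0.36 without D2N, where the DESeq2 adjusted p was 0.00188. The contractile list gave a like picture, with 13 of 13 genes above 0, 9 without overlap (beside 6.35% of all genes) and 6 called higher by DESeq2 (beside 0.790%; MYH11, CNN1, OXTR, MYL9, TPM2 and PGM5). Its median log2 fold change was 2.69, and 1.60 without D2N, where 11 of 13 were above 0, 9 did not overlap (beside 12.9%) and DESeq2 called 5 (beside 0.855%; ACTA2, CNN1, TAGLN, MYL9 and TPM2). CNN1, the actin-binding protein calponin, read 836, 724 and 959.8 in the vehicle rats against 25544, 2801 and 3659 in the TGFBRi rats. Its edgeR adjusted p without D2N was 0.0458. TPM2, a tropomyosin, read 1662, 1202 and 1407 against 28248, 4732 and 5612. MYL9, a myosin light chain, read 1142, 1068 and 988 against 24465, 4657 and 3607. D3R and D4R thus stood above all vehicle rats in each of these genes. MYH11, the smooth muscle myosin heavy chain, did overlap, at 496, 118 and 342 in the vehicle rats and 7489, 225 and 1504 in the TGFBRi rats.

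Summed over the list, basal epithelium genes took 992, 681 and 649.8 CPM in C2N, C2R and C5R and 22043, 2372 and 2022 in D2N, D3R and D4R. The library labelled basal of D1R had 21442, and the 8 other basal sorts of the same experiment had 27386 to 40606. D2N thus lay close to the D1R library and below the other basal sorts, and D3R and D4R lay above the vehicle rats and far below the basal sorts. Contractile genes summed to 538, 442 and 544 in the vehicle rats and 11395, 1407 and 1588 in the TGFBRi rats, against 13280 in the D1R basal library and 12461 to 28641 in the 8 other basal sorts. KRT5, KRT14, KRT15, KRT17 and ACTA2 were read in every library, while DSG3, DSC3, SERPINB5, OXTR, SYNPO2 and LMOD1 were at 0 in 1 or 2 vehicle rats and in no TGFBRi rat. The vehicle library of C2N had the fewest reads (9908645), and what its depth adds to such zeros was not tested. Whether the basal genes in D3R and D4R come from basal cells in the sort or from leukocytes was not tested. Of 19 luminal epithelium genes tested, 0 were called by limma or DESeq2 (beside 0.790% of all genes called higher and 0.662% lower by DESeq2). An unadjusted limma p under 0.05 was found in 0 of the 19, and 0 lay apart between groups (beside 6.35% on the high and 4.66% on the low side). The luminal genes had a median log2 fold change of 0.44, and of 0.20 without D2N. Without D2N limma and DESeq2 called 0, with 0 at an unadjusted limma p under 0.05, and 1 lay apart, on the low side (beside 9.33%). Their summed level was 3506, 3857 and 4245 in the vehicle rats and 7753, 6141 and 2157 in the TGFBRi rats.

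**Figure D3:**
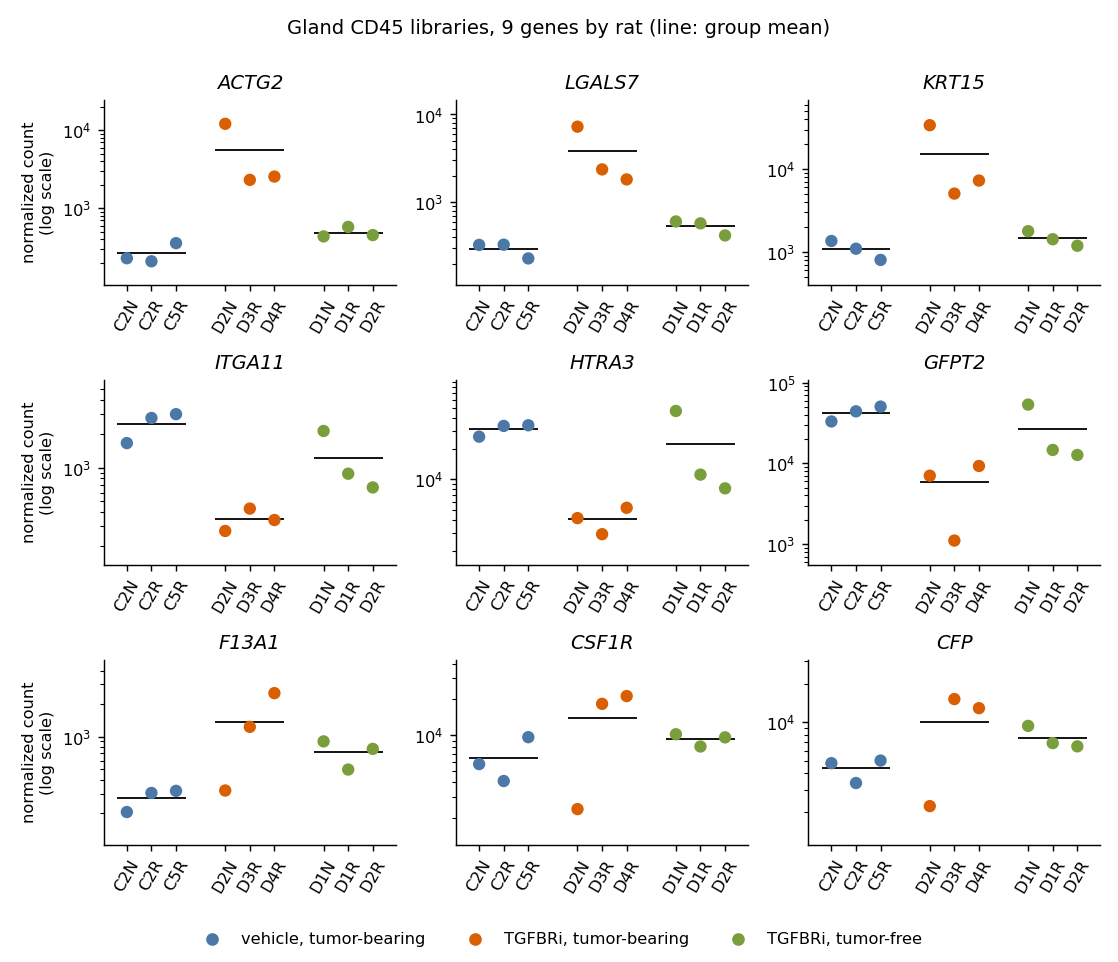
Normalized counts (log scale) of 9 genes in each gland CD45 library, with 1 point per rat, lines for group means and colours for vehicle tumor-bearing, TGFBRi tumor-bearing and TGFBRi tumor-free rats. ACTG2, LGALS7 and KRT15 are higher and ITGA11, HTRA3 and GFPT2 lower in all 3 TGFBRi tumor-bearing rats than in any vehicle rat, whereas F13A1, CSF1R and CFP are above all vehicle rats in D3R and D4R, with D2N close to the vehicle rats in F13A1 and below them in CSF1R and CFP.

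Fibroblast and matrix genes stood lower in the TGFBRi rats. None passed limma, though 12 of 16 had an unadjusted limma p under 0.05, and the calls given here are those of DESeq2. All 16 genes tested had a log2 fold change below 0, 11 did not overlap between the groups (beside 4.66% of all genes on the low side) and DESeq2 called 5 lower (beside 0.662%; COL6A2, FBN1, DPT, MFAP5 and LOXL1). The median log2 fold change was -1.27. Without D2N it was -1.43, with 14 genes apart (beside 9.33% of all genes) and 6 called lower (beside 0.893%; COL6A2, FBLN1, FBN1, MFAP5, LOXL1 and BGN). MFAP5, a microfibril protein of fibroblasts, stood at 7849, 12362 and 12774 normalized counts in the vehicle rats and 2407, 3999 and 2493 in the TGFBRi rats. Its log2 fold change was -1.90 ± 0.38 (limma adjusted p = 0.230, DESeq2 adjusted p = 0.00185). LOXL1, which crosslinks elastin, read 6345, 8908 and 7425 in the vehicle rats and 2339, 2549.6 and 1945 in the TGFBRi rats. FBN1, the main protein of microfibrils, read 2379.9, 2342 and 5234 against 886, 544 and 1004. In these 3 genes all TGFBRi rats, D2N included, were below all vehicle rats. COL3A1, a fibrillar collagen and the highest of the list, did overlap, at 63813, 204090 and 132620 in the vehicle rats and 70203, 40438 and 72775 in the TGFBRi rats. The summed level of the list was 13066, 25458 and 25238 CPM in the vehicle rats and 12116, 7586 and 10016 in the TGFBRi rats, with C2N close to D2N and D4R. In the library labelled basal of D1R it was 11753, close to D2N, and in the 8 other basal sorts 4678 to 13478. None of the 16 genes was at 0 in any library.

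The 12 largest decreases among genes called by DESeq2, with groups apart and a mean of 50 reads or more, included GFPT2, HTRA3, PTGIS, ITGA11 and FNDC1. GFPT2, an enzyme of hexosamine synthesis, stood at 33059, 44117 and 50526 normalized counts in the vehicle rats and 7030.2, 1106 and 9286 in the TGFBRi rats. Its log2 fold change was -3.33 ± 0.71 (DESeq2 adjusted p = 0.00481), and without D2N it was -3.71 ± 0.78, where the DESeq2 adjusted p of 0.0611 missed the threshold. HTRA3, a secreted serine protease, read 26285, 33511 and 33998 in the vehicle rats and 4168, 2897 and 5264 in the TGFBRi rats. The groups lay far apart, with a log2 fold change of -2.96 ± 0.53 (DESeq2 adjusted p = 0.000230) and of -2.99 ± 0.58 without D2N (DESeq2 adjusted p = 0.000197). ITGA11, a collagen-binding integrin of fibroblasts, read 1649.5, 2758 and 2981 against 273, 432 and 342. It had the smallest limma p of the lowered genes named here, with a log2 fold change of -2.79 ± 0.44 (limma adjusted p = 0.120; without D2N -2.63 ± 0.46, limma adjusted p = 0.101). PTGIS, which makes prostacyclin, read 2187, 2926 and 1568 in the vehicle rats and 297, 149.7 and 311 in the TGFBRi rats. FNDC1, a fibronectin-domain protein, read 5730.4, 7552 and 12218 against 1275, 1219.5 and 1835. Both were apart between groups and were called lower by DESeq2 with and without D2N. GSN, an actin-severing protein chosen after its values were seen, stood at 400818, 531570 and 443483 in the vehicle rats and 165766, 204566 and 96706 in the TGFBRi rats, with a log2 fold change of -1.62 ± 0.40 (DESeq2 adjusted p = 0.0268), and -1.70 ± 0.41 without D2N (DESeq2 adjusted p = 0.0180).

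The complement list held genes on either side. Of 19 genes tested 10 were above 0 and 5 were apart on the low side (beside 4.66% of all genes), and DESeq2 called 4 lower (beside 0.662%): C1R and C1S, the proteases of the first complement component, C4B, and the inhibitor SERPING1. The median was 0.14, and 0.71 without D2N. C4B stood at 26245, 40656 and 42618 normalized counts in the vehicle rats and 6642, 10536 and 6967 in the TGFBRi rats, a log2 fold change of -2.18 ± 0.45 (DESeq2 adjusted p = 0.00252). C4A and C4B are near-identical copies, so that their reads may be shared. C1S read 5157, 7614 and 10321 in the vehicle rats and 2609.9, 2532 and 2590.2 in the TGFBRi rats, nearly alike in the 3 TGFBRi rats. Without D2N 8 genes lay apart on the high side and 5 on the low side (beside 12.9% and 9.33% of all genes), DESeq2 called the same 4 and C4A lower (beside 0.893%), and it called CFP and C5AR1 higher (beside 0.855%). CFP encodes properdin, the myeloid-made stabiliser of the alternative pathway. It read 4809.8, 3373 and 5041 in the vehicle rats and 2231, 15139.8 and 12861 in the TGFBRi rats, so that D3R and D4R were above and D2N below all vehicle rats (log2 fold change 0.80 ± 0.58 with all libraries, 1.68 ± 0.31 without D2N, DESeq2 adjusted p = 0.000104).

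Of 20 macrophage genes tested, 13 lay above all vehicle rats in both D3R and D4R (beside 12.9% of all genes), and none did so in all 3 TGFBRi rats. With all libraries 19 of the 20 had a log2 fold change above 0, 0 were called by limma or DESeq2 (1 had an unadjusted limma p under 0.05), and the median was 0.50. Without D2N the median was 1.13 and DESeq2 called 5 higher (beside 0.855% of all genes): CSF1R, the receptor for CSF1, the hyaluronan receptor LYVE1, the scavenger and mannose receptors CD163 and MRC1, and the folate receptor FOLR2. CSF1R stood at 5707, 4111 and 9614 normalized counts in the vehicle rats and 2385, 18353 and 21329 in the TGFBRi rats. Both D3R and D4R were above all vehicle rats and D2N was below them, and the log2 fold change without D2N was 1.70 ± 0.35 (DESeq2 adjusted p = 0.00268, limma adjusted p = 0.131). CD163 read 336, 162 and 372 in the vehicle rats and 328, 702 and 3241 in the TGFBRi rats, where D4R was far above D3R. LYVE1 read 316, 428 and 777 against 394, 1611 and 3838, with the same order. FOLR2 read 1784, 2055 and 1427 against 974, 3850.5 and 4365, with D3R and D4R close together. MRC1 read 207, 185 and 459 against 282, 501 and 2308, and D3R lay only just above the highest vehicle rat. Summed levels of the macrophage list did not separate the groups, at 24404, 26720.5 and 19035 CPM in the vehicle rats and 36546, 25071 and 28679 in the TGFBRi rats, where D2N was the highest library and D3R lay within the vehicle range. This sum is not particular to macrophages, since the same genes summed to 32210.5 to 59806 CPM in the 8 basal sorts other than D1R. Its highest gene was APOE, a lipid carrier that other cells make as well, at 246110, 319121 and 159589 normalized counts in the vehicle rats and 455789, 192755 and 205409 in the TGFBRi rats. C1QC, a complement subunit made by macrophages, read 23052, 21447 and 18693 in the vehicle rats and 11312, 38184 and 41038 in the TGFBRi rats, so that D2N was the lowest library in C1QC and the highest in APOE.

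F13A1, the coagulation factor XIII A chain that tissue macrophages and platelets make, was chosen after its values were seen. It stood at 203, 304 and 317 normalized counts in the vehicle rats and 319.8, 1227 and 2498 in the TGFBRi rats. D2N lay just above the highest vehicle rat, so the groups did not overlap, and the log2 fold change was 1.88 ± 0.60 (DESeq2 adjusted p = 0.0157, limma adjusted p = 0.424). Without D2N it was 2.70 ± 0.43 (edgeR adjusted p = 0.0426, limma adjusted p = 0.0655). Among 11 monocyte genes 0 were called by limma or DESeq2 with all libraries (0 at an unadjusted limma p under 0.05) and 1 lay apart, on the low side (beside 4.66% of all genes), with a median of -0.07. Without D2N the median was 0.53, 4 lay apart on the high side (beside 12.9%) and DESeq2 called LYZ2 and LY86 higher (beside 0.855%). LYZ2, a lysozyme of myeloid cells, read 28021, 40146 and 56501 in the vehicle rats and 13016, 107072 and 98323 in the TGFBRi rats (log2 fold change 0.37 ± 0.65, and 1.36 ± 0.33 without D2N). Of 13 neutrophil genes 11 were above 0 either way, with a median of 0.72, and of 1.62 without D2N. DESeq2 called MMP9 lower with all libraries (beside 0.662% of all genes) and 0 genes without D2N, when 4 lay apart on the high side (beside 12.9%). The list summed to 682, 973 and 239 CPM in D2N, D3R and D4R, against 347 to 382 in the vehicle rats. This sum is not particular to neutrophils. The same genes summed to 487 to 886 CPM in the 8 basal sorts other than D1R and to 2777 to 6711 in the luminal sorts. MHC class II genes, which antigen-presenting cells express, gave 0 calls in 10 genes by limma or DESeq2 either way (0 at an unadjusted limma p under 0.05 with all libraries and 2 without D2N), and 7 of 10 lay apart on the high side without D2N (beside 12.9% of all genes), when their median was 0.70 (with D2N -0.09). Their summed level was 67265, 58449 and 65471 CPM in the vehicle rats and 16819, 96114 and 97808 in the TGFBRi rats. D2N was thus far below the rest and close to the library labelled basal of D1R (15881).

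With all libraries, lymphocyte genes had log2 fold changes mostly below 0, and without D2N this held for the B cell and T cell lists. In the B cell list 0 of 16 genes had a log2 fold change above 0, 4 lay apart (beside 4.66% of all genes on the low side) and DESeq2 called 2 lower (beside 0.662%), the kinase BLK and the transcription factor EBF1. The median was -1.74, and -1.66 without D2N, where 4 lay apart on the low side and 1 on the high side (beside 9.33% and 12.9%) and DESeq2 called EBF1 (beside 0.893% called lower). EBF1, which sets B cell identity and is also read in stromal cells, stood at 453, 505 and 649.7 normalized counts in the vehicle rats and 169, 136 and 185 in the TGFBRi rats. Its log2 fold change was -1.70 ± 0.36 (DESeq2 adjusted p = 0.000265), and -1.73 ± 0.40 without D2N (DESeq2 adjusted p = 0.00222). BLK read 1031, 1012 and 408 in the vehicle rats and 166, 277 and 128 in the TGFBRi rats, with a DESeq2 adjusted p of 0.0346, and of 0.0555 without D2N. Its log2 fold change was alike both ways, at -2.05 ± 0.60, and -1.99 ± 0.66 without D2N. B cell genes summed to 1819, 1225 and 592 CPM in the vehicle rats, a wide range, and to 217, 682 and 456 in the TGFBRi rats, and D3R overlapped C5R. The same genes summed to 213 in the library labelled basal of D1R, close to D2N. Of 18 T cell genes 2 were above 0, 6 lay apart on the low side (beside 4.66% of all genes) and 0 were called by limma or DESeq2, with 7 at an unadjusted limma p under 0.05. Their median was -1.14. Without D2N it was -0.55, 6 lay apart on the low side and 1 on the high side (beside 9.33% and 12.9%), and 2 had an unadjusted limma p under 0.05. The T cell sum was 2707, 2529.8 and 1865 in the vehicle rats and 466, 1818 and 1643 in the TGFBRi rats. D2N was thus far below all others and close to the library labelled basal of D1R (428), and D3R and D4R were only a little below C5R. CD4, which rat macrophages carry as well as helper T cells, went the other way. It read 1431, 2878 and 4313 in the vehicle rats and 608, 6834 and 7985 in the TGFBRi rats and was called higher by DESeq2 without D2N (log2 fold change 1.501 ± 0.40, DESeq2 adjusted p = 0.0464). Cytotoxic and NK genes gave 0 calls by limma or DESeq2 in 19 genes, 0 of them at an unadjusted limma p under 0.05, with a median of -0.41, and of 0.36 without D2N (again 0 calls by either tool, 1 gene at an unadjusted limma p under 0.05). Of these 19 genes 7 were above 0 with all libraries and 15 without D2N. Of 15 checkpoint and regulatory T genes 3 were above 0, and 7 without D2N, with medians of -0.79 and -0.10. With all libraries limma and DESeq2 called 0 of them, and without D2N DESeq2 called IL10 higher (beside 0.855% of all genes).

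Among chemokines and cytokines the calls with all libraries were decreases. Of 23 chemokine genes DESeq2 called CCL20 and CXCL13 lower (beside 0.662% of all genes) and 3 lay apart, all on the low side (beside 4.66%), with a median of -0.62 and 3 at an unadjusted limma p under 0.05. Without D2N 8 lay apart on the low side and 4 on the high side (beside 9.33% and 12.9%), the median was -0.48 and 11 of 23 had an unadjusted limma p under 0.05, with 0 called by limma. CCL20, which attracts CCR6+ lymphocytes, stood at 224, 1076 and 262 normalized counts in the vehicle rats and 93.2, 18.1 and 23.03 in the TGFBRi rats. The groups did not overlap, and C2R was the highest by far. Its log2 fold change was -3.51 ± 0.79 (DESeq2 adjusted p = 0.00217), and -4.22 ± 0.76 without D2N (DESeq2 adjusted p = 1.23e-06). CXCL13, the B cell attractant, read 396, 759 and 1230.0 against 218, 324 and 256. It was not called without D2N, where the mean log2 of D3R and D4R minus the vehicle mean was -1.31. DESeq2 then called CCL24 higher. Of 26 cytokine genes DESeq2 called CSF1 lower (beside 0.662% of all genes) and limma called 0 (6 at an unadjusted p under 0.05), with a median of -0.16, and of 0.39 without D2N. With all libraries 5 lay apart on the low side and 1 on the high side (beside 4.66% and 6.35%), and without D2N 6 and 4 (beside 9.33% and 12.9%). CSF1, the growth factor for macrophages made largely by stromal cells, read 2524, 5722 and 7194 in the vehicle rats and 2024, 566 and 1537 in the TGFBRi rats (log2 fold change -1.96 ± 0.55, DESeq2 adjusted p = 0.0469; without D2N -2.33 ± 0.55, DESeq2 adjusted p = 0.00422). Without D2N DESeq2 called IL6, IL34 and CSF2 lower as well (beside 0.893% of all genes) and IL10 higher (beside 0.855%), and limma called 0 (5 at an unadjusted p under 0.05). IL6 read 1837, 3139.7 and 2009 in the vehicle rats and 772 and 800.5 in D3R and D4R, while D2N was within the vehicle range at 2344.

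Genes of the TGFβ pathway itself gave different calls with and without D2N. Of 19 pathway genes (ligands, receptors, SMADs and regulators) limma called 0 (4 at an unadjusted p under 0.05) and DESeq2 called 1 higher (beside 0.790% of all genes), ITGB6, a subunit of the integrin that releases latent TGFβ and that is made by epithelium. It stood at 11.4, 28.9 and 17.6 normalized counts in the vehicle rats and 1003, 75.3 and 236 in the TGFBRi rats, and its DESeq2 adjusted p was 0.00516. With all libraries 3 pathway genes lay apart on the low side and 1 on the high side (beside 4.66% and 6.35% of all genes). Without D2N 7 lay apart on the low side and 2 on the high side (beside 9.33% and 12.9%), and limma called 0, with 7 at an unadjusted p under 0.05. The list's median was -0.12, and -0.11 without D2N. DESeq2 without D2N instead called NRROS higher (beside 0.855% of all genes) and LTBP4 and LRRC32 lower (beside 0.893%), all of which bind or present latent TGFβ. Of 17 TGFβ target genes 4 lay apart on the high side and 3 on the low side (beside 6.35% and 4.66% of all genes), with a median of 0.33. Without D2N 7 lay apart on the high side and 3 on the low side (beside 12.9% and 9.33%), and the median was 0.47. FN1, the matrix protein fibronectin, was the 1 target gene that DESeq2 called with all libraries. It was called lower (beside 0.662% of all genes), at 12279.7, 21415 and 41481 in the vehicle rats and 4076, 5882 and 7478 in the TGFBRi rats (log2 fold change -1.98 ± 0.53, DESeq2 adjusted p = 0.0213). TAGLN, an actin-binding protein of smooth muscle, lay apart in the other direction, at 1328, 2003 and 2029 in the vehicle rats and 41688, 5455 and 5061 in the TGFBRi rats. It was called higher by DESeq2 without D2N (beside 0.855% of all genes), where DESeq2 called COL1A1 and FN1 lower (beside 0.893%).

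Other programmes gave few calls, and several differed without D2N. Heat shock genes lay above 0 in 12 of 12, with a median of 0.54, 3 apart on the high side (beside 6.35% of all genes) and 1 DESeq2 call (beside 0.790%), the co-chaperone DNAJB1 at 4697, 4377 and 3947 in the vehicle rats and 18966, 13088 and 5517 in the TGFBRi rats. Without D2N DNAJB1 was not called (DESeq2 adjusted p = 0.122), the median was 0.71 and 7 of 12 lay apart on the high side (beside 12.9% of all genes). DESeq2 then called HSPA1A and HSPA1B higher (beside 0.855%), inducible chaperones whose near-identical copies can share reads. HSPA1A read 1145, 1177 and 2055 in the vehicle rats and 1975, 6163 and 2846 in the TGFBRi rats. The summed level of the list was 3491, 3197 and 4607 CPM in the vehicle rats and 4939, 6806 and 5266 in the TGFBRi rats, all above the vehicle range. The library labelled basal of D1R had 5033, close to D2N. Immediate early genes, which respond to tissue dissociation among other stimuli, summed to 17295, 15674 and 19093 in the vehicle rats and 20987, 24352 and 24936 in the TGFBRi rats, also without overlap, and to 21112 in the library labelled basal of D1R. With all libraries their median was 0.38 and 0 of 25 were called by limma or DESeq2 (4 at an unadjusted limma p under 0.05). Without D2N the median was 0.52, 10 lay apart on the high side (beside 12.9%) and DESeq2 called 2 higher (beside 0.855%), the nuclear receptor NR4A2 and the phosphatase DUSP1. NR4A2 read 78.6, 161 and 651 in the vehicle rats and 411, 2000.1 and 1629 in the TGFBRi rats, with D2N within the vehicle range. What these sums share with the other differences was not tested.

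Interferon-stimulated genes (28 tested) and genes of S phase (34) and of G2/M phase (46) gave 0 calls by limma or DESeq2 with all libraries, with 1, 1 and 2 genes at an unadjusted limma p under 0.05. Their medians were -0.44, 0.04 and 0.47, and without D2N -0.16, 0.29 and 0.61. Without D2N DESeq2 called 1 S phase gene higher (beside 0.855% of all genes), PCNA, the sliding clamp of DNA replication, and 6 of 34 S phase genes lay apart on the high side, beside 12.9% of all genes. PCNA read 1515, 1529 and 2186 in the vehicle rats and 2182, 6021 and 3807 in the TGFBRi rats. The interferon-stimulated and G2/M lists again gave 0 calls by limma or DESeq2, with 1 and 3 genes at an unadjusted limma p under 0.05. Milk genes were above 0 in 12 of 12, with a median of 1.35, 4 apart on the high side (beside 6.35% of all genes) and 2 DESeq2 calls, CSN1S1 and CSN1S2A (beside 0.790%). Without D2N the median was 1.56, 4 lay apart (beside 12.9%) and DESeq2 called CSN2 as well (beside 0.855%). CSN1S1, a casein, stood at 280.2, 567 and 1106 in the vehicle rats and 2883, 28647 and 1699 in the TGFBRi rats, and D3R alone was far above the rest. CSN1S2A followed the same rat, at 0, 0 and 4.63 in the vehicle rats and 47.4, 812 and 9.21 in the TGFBRi rats.

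**Figure D4:**
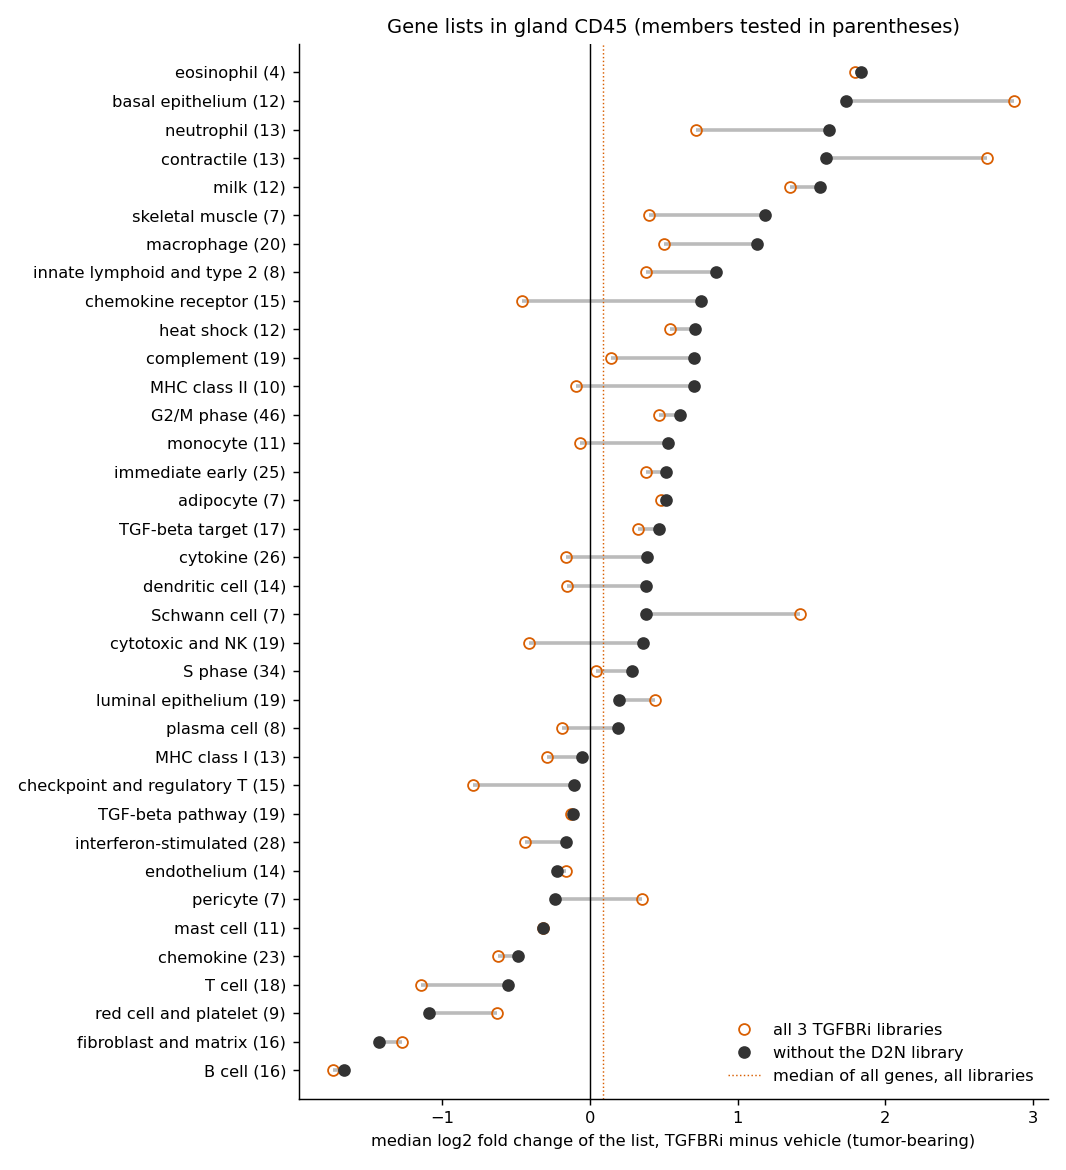
Median log2 fold change (TGFBRi minus vehicle) of 36 gene lists in gland CD45 of tumor-bearing rats, with open circles for all libraries, filled circles without the D2N library and a dotted line at the median of all genes (0.09). Basal, contractile, milk and eosinophil lists are high and the fibroblast and B cell lists low either way, while macrophage, MHC class II and chemokine receptor lists move up when the D2N library is left out. The eosinophil list has 4 genes tested, which summed to at most 8.24 CPM in the tumor-bearing rats, and 0 of them were called by limma or DESeq2.

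The other large differences among genes called by DESeq2 and apart between groups came mostly from genes that were scarce in the vehicle rats. REM2, a small GTPase, read 0, 7.45 and 63.9 normalized counts in the vehicle rats and 548, 517 and 134 in the TGFBRi rats, and it was called without D2N as well (DESeq2 adjusted p = 0.00787, and 0.0355 without D2N). UPK1B, a uroplakin, read 0, 2.79 and 33.3 against 526, 44.2 and 283. SEMA5A, a semaphorin, read 11.4, 12.1 and 53.7 against 1123, 179 and 195. In both genes D2N was the highest library. OXTR, the oxytocin receptor through which myoepithelium contracts, read 0, 0 and 17.6 against 417, 31.1 and 56.2. PGM5, PDGFB, GPSM2, TPD52L1, CIB2 and ADAMTS18 completed the 12 largest increases, together with ACTG2 and CSN1S2A. For 9 of the 12, all but ACTG2, CSN1S2A and REM2, DESeq2 gave no adjusted p without D2N. Among the decreases, CYP2D1, a cytochrome of the liver with close paralogs, read 84.3, 126 and 164 against 0.804, 0 and 0. HBA-A1, an alpha globin of red cells, also with near-identical copies, read 85.8, 189 and 242 against 23.3, 6.03 and 10.1. NPPB, which encodes a natriuretic peptide, read 137, 269 and 65.7 against 17.7, 6.03 and 15.7. In these 3 genes all TGFBRi rats were below all vehicle rats. The red cell and platelet list, which holds HBA-A1, went both ways. Its sum was 375 and 622 CPM in D3R and D4R, above the highest vehicle rat (344), and 198 in D2N, just below the lowest. Of its 9 genes tested 3 were above 0 and 2 lay apart, on the low side (beside 4.66% of all genes), with a median of -0.63. DESeq2 called 1 of the 9 lower, HBA-A1 (beside 0.662%). Without D2N 4 were above 0, 2 lay apart on the high side and 2 on the low side (beside 12.9% and 9.33%), and the median was -1.09. DESeq2 again called HBA-A1 alone (beside 0.893% called lower). TMEM163 read 329, 243 and 165 in the vehicle rats and 62.7, 31.1 and 22.1 in the TGFBRi rats. DDX25 and AKR1C3 completed the 12 largest decreases.

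Values of the 3 tumor-free TGFBRi rats were set beside those of the tumor-bearing ones. ACTG2 read 438, 579 and 455 normalized counts in D1N, D1R and D2R. LGALS7 read 603, 573 and 418 in these rats, and KRT15 read 1780.2, 1423 and 1186. All 9 values were below those of D2N, D3R and D4R for the same gene. In ACTG2 and LGALS7 the tumor-free rats also lay above all vehicle rats (at most 359 and 328), while in KRT15 they overlapped the vehicle rats. Between tumor-free TGFBRi and vehicle rats limma called 0 of 13297 genes, with 404 at an unadjusted p under 0.05. The log2 difference of tumor-bearing from tumor-free TGFBRi rats was 3.09 for ACTG2, 2.58 for LGALS7 and 2.90 for KRT15, each with a limma adjusted p of 0.473. Without D2N it was 2.32 for ACTG2 (limma adjusted p = 0.247), 1.98 for LGALS7 (0.376) and 2.07 for KRT15 (0.247). limma and edgeR called 0 of 13297 genes in that contrast (952 and 1045 at an unadjusted p under 0.05), while DESeq2 called 119 (0.895%), and 78 without D2N. HTRA3 read 47011, 11142 and 8169 in the tumor-free rats. GFPT2 read 53484, 14663 and 12706, and in both genes D1N lay above all vehicle rats and D1R and D2R lay between the vehicle and the tumor-bearing TGFBRi rats. F13A1 read 902, 498 and 770.2, above all vehicle rats, and CSF1R 10181, 8025 and 9583. The basal list summed to 1025, 1182 and 797 CPM in the tumor-free rats and the fibroblast list to 16422, 17599 and 11014.

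CD45+ cells of the tumors of the same 6 rats gave other values for some of the same genes. These libraries were normalized apart from the gland by the study's authors, so their normalized counts were not set against those of the gland. ACTG2 read 1.40, 194 and 26.8 in the tumors of C2N, C2R and C5R and 72.1, 3.66 and 75.9 in those of D2N, D3R and D4R, with overlapping groups (log2 fold change 0.34, limma adjusted p = 0.978). For LGALS7 the log2 fold change in tumors was 0.96 (limma adjusted p = 0.828), for HTRA3 -1.17 (0.822) and for CSF1R -1.21 (0.760). CYP2D1 lay apart on the low side in tumors as in the gland, at 292, 2.34 and 83.8 in the vehicle rats and 0 in each TGFBRi rat (-5.45, limma adjusted p = 0.660). CIB2 lay apart on the high side in both (2.71 in tumors, 0.789). CD4, called higher in the gland without D2N, lay apart on the low side in tumors (-1.54, 0.615). The difference of treatment effect between gland and tumor, tested within rats, was 3.87 for ACTG2 on the log2 scale (limma adjusted p = 0.399), and 3.49 without D2N (limma adjusted p = 0.350), and limma called 0 of 12190 genes, with 993 at an unadjusted p under 0.05. Basal genes summed to 129, 199.98 and 92.5 CPM in the vehicle tumors and 102.2, 88.1 and 157 in the TGFBRi tumors. In gland leukocytes of 8 young SD rats without NMU, taken at the end of dosing, ACTG2 had a log2 fold change of -0.52 between 4 TGFBRi and 4 vehicle rats (limma adjusted p = 0.870). The log2 fold changes in young rats were -0.62 for LGALS7, -0.58 for KRT15, -0.87 for ITGA11, -0.83 for HTRA3 and 1.15 for F13A1, and the groups overlapped in each of these genes. The HTRA3 value includes vehicle rat C7N at 3825 normalized counts, against 674 to 801 in the other vehicle rats and 405 to 817 in the TGFBRi rats.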

How the data were processed

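RNA of CD45+ cells sorted from normal glands was amplified with a low-input SMARTer kit and sequenced as single 75-base reads. The authors aligned reads with STAR 2.5.1b to rn6 and counted them on RefSeq genes with HTSeq, without regard to strand. The deposited values are a signal: counts that the authors divided by DESeq2 (1.30.1) size factors, here called normalized counts. All values above 0 were whole numbers of reads times 1 step per library, in 100% of 500675 values of 41 libraries at a tolerance of 0.001, so that reads could be recovered.

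Groups were compared with limma 3.58.1 (trend, robust) on log2(normalized count + 1) over genes that sum to at least 10 in the 9 gland CD45 libraries of NMU rats, all 3 groups in 1 model, with Benjamini-Hochberg adjusted p of 0.05 or less. Fold changes are on that scale, which understates changes of low genes. DESeq2 1.42.0 and edgeR 4.0.16 (quasi-likelihood) on recovered reads were alternatives, and "called" names the tool wherever it is not limma. Other alternatives were pseudocounts of 0.5 and 5, filters, scaling, only the 6 tumor-bearing samples and leaving out each rat. Fits of DESeq2 and edgeR without the D2N library were chosen after seeing the data. In the limma fit without D2N, 2 TGFBRi rats remain. The within-rat test of gland minus tumor used CPM with TMM scaling. Steps were tested on simulated data with planted changes. No simulated library was mixed or mislabelled, so those data do not bear on the D2N library. Other software was R 4.3.3, Python 3.11.15 and pandas 2.3.3.

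Named genes were drawn from those called by limma, the 12 with the largest change per direction among DESeq2 calls whose groups lie apart and whose 6 libraries average 50 or more reads, and list members that were called or among the 4 highest of their list. Not every list member that meets this rule is named. Genes outside this rule are marked, and members called only without the D2N library are named as such. The comparison, lists and tests were chosen with earlier results of these data known. Groups lie apart when no value of one falls within or beyond the range of the other. Gene symbols are those of the files, and a reference genome of the build rn6 was not used here.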

Additional observations from a re-analysis of the deposited data

Results flagged for a closer look

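The library labelled basal of the tumor-free TGFBRi rat D1R, which enters no test between groups, held leukocyte genes. It had 47.8 CPM for PTPRC, 37.3 for the T cell receptor subunit CD3E and 8281 for CD74, the invariant chain of MHC class II. The 8 other basal libraries of the NMU rats had at most 1.35, 1.01 and 401 for these genes. The cause was not tested. In the gland leukocytes of young SD rats, HTRA3 of vehicle rat C7N, at 3825 normalized counts, lay farther from the 3 other vehicle rats (674 to 801) than Dixon's test allows for 4 values. It was the only such value in 12 groups examined (6 genes in 2 groups), and chance flags about 1 in 20 groups.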

How the results depend on the processing

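The count of 2 limma calls was 2 with pseudocounts of 0.5 and 5, with no filter on low values and without robust variances. It was 0 with edgeR, with only the 6 tumor-bearing samples, with genes of a mean of at least 50 and on CPM with and without TMM scaling, and 193 with DESeq2. Leaving out 1 rat gave 0 to 3 calls: 0 without C2N, C2R, C5R or D3R, 2 without D4R and 3 without D2N. Without D2N edgeR called 5 and DESeq2 229. The contrast of tumor-bearing with tumor-free TGFBRi rats gave 0 calls under each alternative except DESeq2 (119, and 78 without D2N), and gland minus tumor gave 0 under each. Leaving out 1 rat turned the log2 fold change of LYZ2 (-0.16 without D3R, -0.10 without D4R, up to 1.36 without D2N), CD4 (-0.13 without C2N, -0.24 without D3R, -0.36 without D4R, up to 1.501 without D2N), LY86 (-0.19 without D3R, -0.08 without D4R, up to 1.47 without D2N), IL10 (-0.13 without D4R, up to 1.49 without D2N), NRROS (-0.0049 without D4R, up to 1.34 without D2N), APOE (-0.22 without D2N, -0.28 by DESeq2 without D2N, -0.10 without C5R, up to 0.40 without C2R), C1QC (-0.014 without D4R, up to 0.92 without D2N) and PTPRC (-1.03 without D4R, up to 0.12 without D2N, and 0.068 by DESeq2 without D2N). The cause was not tested. No paired analysis was possible because the rats of the 2 groups are different animals and their numbers only name them; gland and tumor of 1 rat were paired through their difference. CSN1S2A and OXTR were at 0 in C2N and C2R, and REM2, UPK1B, ADAMTS18, CIB2 and PDGFB in C2N. CYP2D1 was at 0 in D3R and D4R. The fitted fold changes of all these genes depend on the value added before taking logs.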
